A study of Homo sapiens with 4 samples.

Results

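The kinesin genes of RWP-1 cells, an established human pancreatic cancer line, are described here on 4 single-channel expression arrays. They were taken as all genes whose only platform symbol begins with KIF and a digit, which gave 40 genes with 43 probe sets among 14884 named genes and 53617 probe sets. Where a gene had several probe sets, the one with the highest mean over the 4 arrays stood for it, so probe sets were chosen by mean level, and levels are given as a description only. Of the 40 genes, 39 encode motors and 1, KIF9-AS1, is an antisense transcript. By their known roles the motors were sorted into 13 mitotic kinesins, 13 transport kinesins and 13 others that act in cilia, in signalling or on microtubule ends.

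The untreated group, Ctrl, and the group treated with rGAL1 held 2 arrays each, and both consisted of RWP-1 cells with no other treatment named. rGAL1 is read here as recombinant galectin-1, a secreted protein that binds sugars on the cell surface; the labels give neither dose, time nor vehicle. The titles also number the arrays 1 and 2 within each group, which allows a second contrast, arrays numbered 2 minus arrays numbered 1, on the same 4 arrays. One array, rGAL1 2, carries a treatment entry that reads as untreated, against its title and source name, and values without it are given beside the class results. No label ties an array to a culture of its own, so each p-value reflects array-to-array spread alone, and that spread could be technical in origin.

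The line was 1 cell population by label. Of 7 measured ductal and epithelial markers, 7 lay above the dim level of 4.70 log2 units, the median of all probe sets' means, with KRT18 at 12.39 and SOX9 at 10.31. Markers of other cell types lay on both sides of it. DCN of fibroblasts (3.0) and LYZ of leukocytes (4.52) lay below, as did 2 of 3 acinar, 1 of 3 endocrine and 1 of 2 endothelial markers. CPA1 (acinar, 4.78), CHGA (endocrine, 4.79), SST (endocrine, 5.37) and VWF (endothelial, 4.84) lay above, as did both neuronal markers. The array medians ran from 4.69 to 4.72, and the SD of the difference between any 2 arrays over all probe sets was between 0.275 and 0.303. It was 0.299 within Ctrl and 0.285 within rGAL1. Between the groups it ran from 0.275 (Ctrl 1 and rGAL1 2) to 0.303 (Ctrl 2 and rGAL1 2), so arrays of a group were not clearly closer to each other. Ctrl 2 lay farthest from the rest, with 0.299 to 0.303 in every comparison that held it and 0.275 to 0.286 in every other.

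Kinesins are motor proteins that burn ATP to move along microtubules or to take them apart at their ends. Mitotic kinesins build the spindle, move chromosomes and complete cell division, and most are made mainly in the G2 and M phases. Transport kinesins carry vesicles, organelles and protein complexes, usually towards the growing ends of microtubules, in dividing and resting cells alike. Genes expressed in late cell cycle phases often carry a cell cycle genes homology region (CHR), a short element bound by the DREAM and MuvB complexes, and one or more CCAAT boxes bound by NF-Y, close to the transcription start.

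Promoter letters differed between the classes. Windows from 250 bases before to 50 after the annotated start were taken from RefSeq (GRCh38.p14) and searched on both strands for the CHR (TTTGAA or TTCGAA) and for the CCAAT box. Of the CHR spellings the second reads the same on both strands, and no motif contains another. All 13 mitotic genes had a window, as did 11 of 13 transport genes and 9 of 13 others. A CHR was found in 10 of 13 mitotic genes, 1 of 11 transport genes and 1 of 9 others, against 19.5% of 27305 genes and 16.4% of 35116 windows. A CCAAT box was found in 10 of 13, 4 of 11 and 3 of 9, against 39.7% of genes. Both motifs stood in 9 of 13 mitotic genes, 1 of 11 transport genes and 1 of 9 others, against 7.85% of genes. A match is a run of letters and not a shown site of binding, and no test was run on these shares.

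The 110 bases that end 1 base before the start are shown for 6 mitotic genes and a transport gene. That transport gene, KIF13A, had neither motif in its window, whereas 4 of 11 transport genes had a CCAAT box. The stretches show how close together the 2 motifs lie where a promoter has both. Each is written 5′ to 3′ on the gene's strand, with CHR and CCAAT letters in capitals (ATTGG is CCAAT and TTCAAA is TTTGAA on the other strand).
KIF11 (chr10:92593020-92593129, plus strand): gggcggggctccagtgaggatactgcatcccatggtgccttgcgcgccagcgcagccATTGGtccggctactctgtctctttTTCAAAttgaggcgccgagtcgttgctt
KIF23 (chr15:69414239-69414348, plus strand): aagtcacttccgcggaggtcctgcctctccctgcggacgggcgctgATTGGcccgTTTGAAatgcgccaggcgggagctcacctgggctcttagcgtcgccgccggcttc
KIF4A (chrX:70289994-70290103, plus strand): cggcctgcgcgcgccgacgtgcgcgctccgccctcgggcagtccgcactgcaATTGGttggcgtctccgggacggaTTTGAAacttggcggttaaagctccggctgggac
KIF15 (chr3:44761684-44761793, plus strand): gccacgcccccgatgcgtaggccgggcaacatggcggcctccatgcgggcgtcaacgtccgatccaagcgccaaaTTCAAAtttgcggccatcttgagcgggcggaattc
KIF22 (chr16:29790641-29790750, plus strand): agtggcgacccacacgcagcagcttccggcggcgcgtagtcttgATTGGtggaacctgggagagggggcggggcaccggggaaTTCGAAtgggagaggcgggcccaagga
KIF20A (chr5:138179002-138179111, plus strand): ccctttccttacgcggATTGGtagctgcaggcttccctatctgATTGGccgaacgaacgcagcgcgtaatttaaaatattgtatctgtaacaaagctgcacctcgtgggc
KIF13A (chr6:17987636-17987745, minus strand): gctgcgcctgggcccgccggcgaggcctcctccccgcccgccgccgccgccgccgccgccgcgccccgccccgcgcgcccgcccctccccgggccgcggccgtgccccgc

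In KIF11 the CHR began 28 bases and the CCAAT box 53 bases before the start. The pair lay at 55 and 64 bases in KIF23, at 34 and 58 in KIF4A and at 27 and 66 in KIF22, whose second window holds CHR letters 244 bases before its own start. KIF15 had a CHR at 35 bases and no CCAAT box. KIF20A had 2 CCAAT boxes, at 67 and 94 bases, and neither CHR spelling in its window, and KIF2C and KIF2B had neither motif. Of the remaining mitotic genes, KIF18A had its CHR 10 bases before the start, and KIF14, KIF18B, KIF4B and KIF20B had theirs after it, from position 2 to 31. KIF5B, the exception among transport genes, had its CHR 140 bases before the start, farther out than the nearest CHR of any mitotic gene. It also had a CCAAT box, at 59 bases. KIF24, the exception among the others, had one at position 2 and 3 CCAAT boxes.

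**Figure D1:**
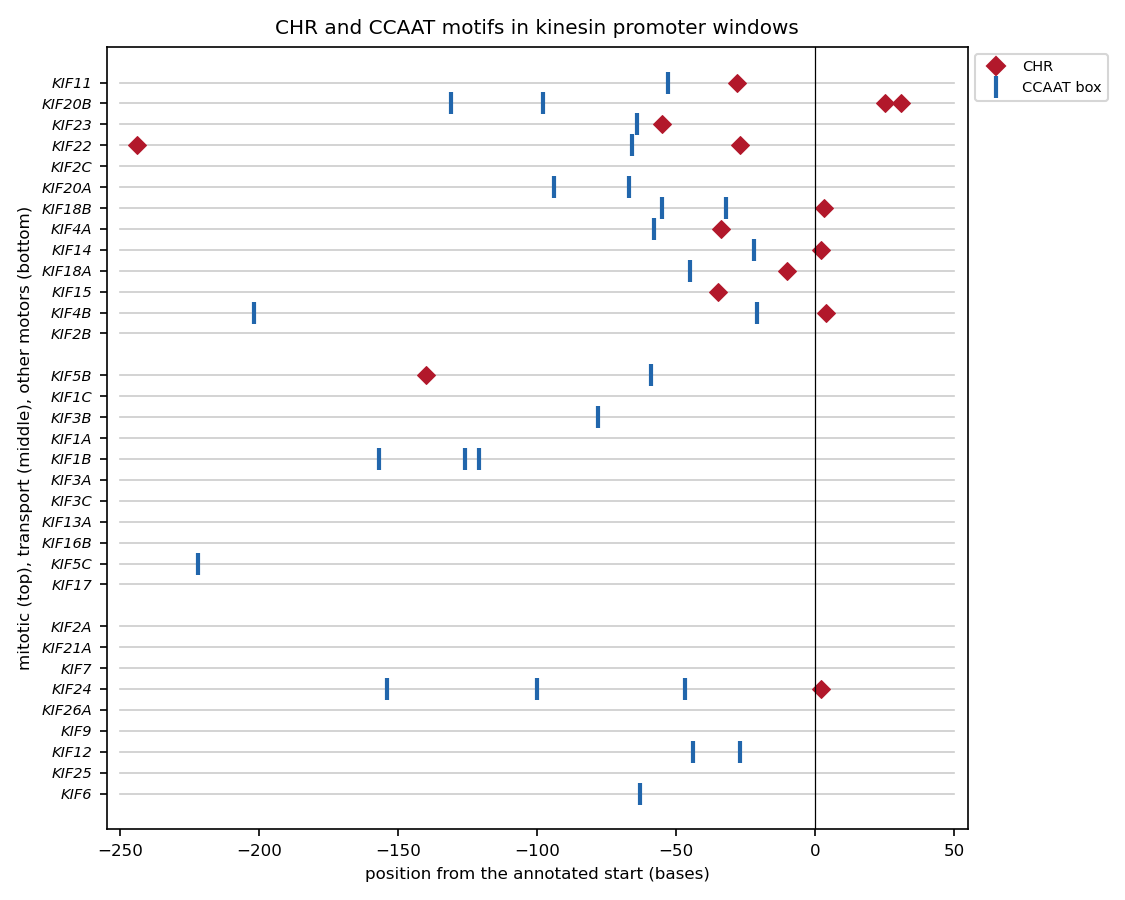
Positions of CHR (red diamonds) and CCAAT (blue bars) letters in the promoter windows of 33 kinesin genes, in bases from the annotated start; genes with several windows have them overlaid on 1 line. Red diamonds are present in 10 of 13 mitotic genes, mostly near the start, and 1 transport gene and 1 other motor have one.

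All 13 mitotic and all 13 transport kinesins had means above the dim level, as did 11 of the 13 others; KIF25 (4.35) and KIF6 (3.91) did not, and neither did KIF9-AS1 (4.07). These log2 values depend on each probe set's own brightness as well as on transcript amount, so they do not rank genes by abundance. On the Ctrl arrays the mitotic values ran from 5.27 to 9.11 on Ctrl 1 and from 5.50 to 9.0 on Ctrl 2, and the transport values from 5.63 to 11.23 and from 5.54 to 11.21. The class median was 8.12 and 8.08 for mitotic genes and 6.95 and 7.04 for transport genes. The spread within each class was far larger than this gap, and the difference of class means (0.44 on the Ctrl arrays) was smaller than that of class medians (1.12).

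The upper end of the mitotic class was KIF11, the spindle motor that pushes the poles apart, with a mean of 9.17. It was followed by KIF20B (8.87) and KIF23 (8.50), which act in cytokinesis, and by the chromosome arm motor KIF22 (8.34). At its lower end was KIF2B, a depolymerase related to KIF2C, at 5.35. KIF4B, at 6.58, is an intronless copy of KIF4A, and probes of either can bind transcripts of the other, so its value is uncertain. Among transport motors KIF5B, the kinesin-1 heavy chain found in most tissues, had a mean of 11.24, while KIF5A (6.13) and KIF5C (5.79), the forms best known from neurons, had lower values. The neuronal markers SYT1 and MAP2 had means of 5.50 and 5.49. KIF1A, also known as a motor of synaptic vesicle precursors, had a mean of 8.21.

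**Figure D2:**
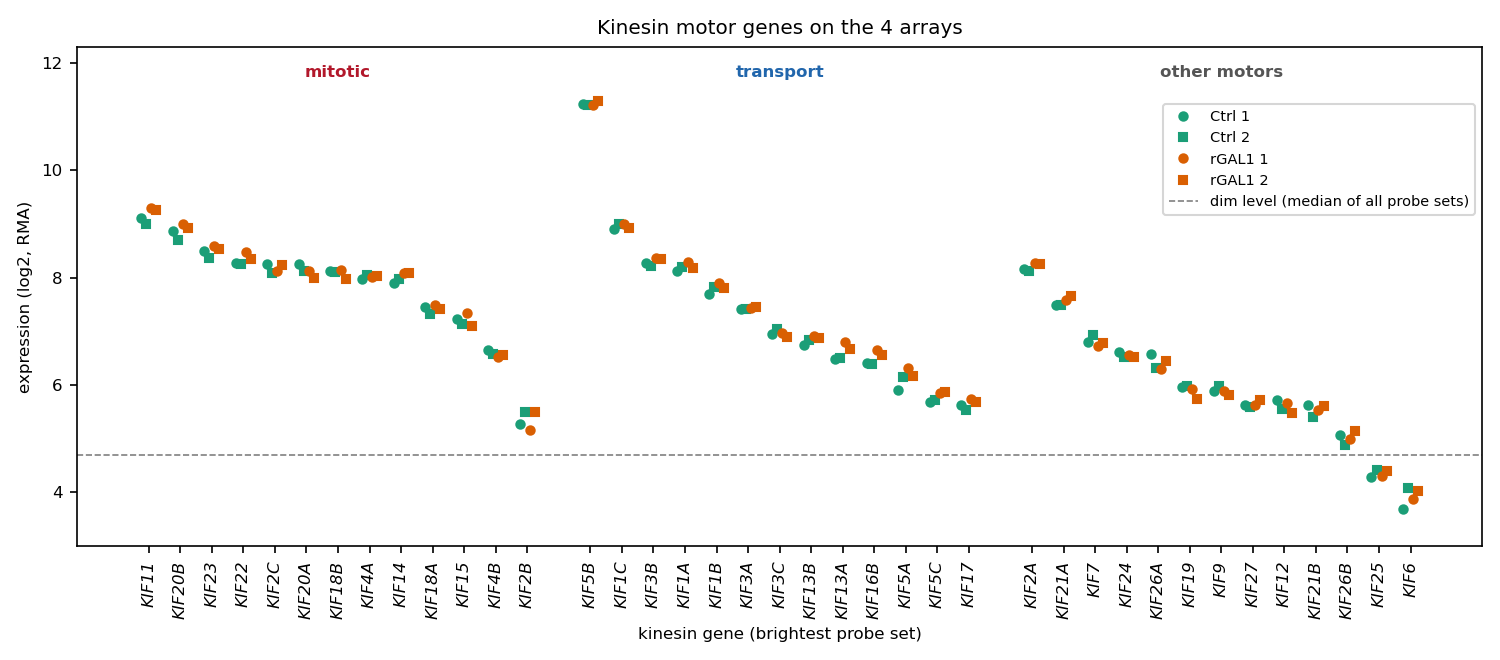
Expression of the 39 motor genes (log2, RMA values) on each array, ordered by mean within the 3 classes; circles are arrays numbered 1, squares those numbered 2, green Ctrl and orange rGAL1, and the dashed line is the dim level of 4.70. The 4 arrays of a gene lie close together compared with the spread between genes, and KIF25 and KIF6 lie under the line.

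Kinesin genes differed between the arrays by small amounts, close to those of named genes above the dim level. The SD over the 4 arrays had a median of 0.0952 log2 units for mitotic, 0.0723 for transport and 0.0833 for other motors, against 0.0902 for all named genes above the dim level. The widest ranges between the highest and lowest array were 0.407 for KIF5A, 0.389 for KIF6 and 0.332 for KIF2B.

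No kinesin gene passed the test between rGAL1 and Ctrl. At an adjusted p under 0.05 (limma, Benjamini-Hochberg over all probe sets), 0 of 39 motors were called, and 0% of all 53617 probe sets. The smallest adjusted p (limma) was 0.919 among motors and also over all probe sets. Without adjustment, 0 of 39 motors had a p under 0.05, against 5.24% of all probe sets, 2.98% of named genes and 2.05% of named genes above the dim level. The shares of named genes are too small to read 0 of 39 as a result. Differences ran from -0.14 to 0.24 log2 units with SEs of 0.10 to 0.17. The 95% intervals of all 39 lay between -0.48 and 0.56. Each interval is for 1 gene on its own and reflects array-to-array spread alone, so together they do not exclude larger differences.

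Transport kinesins tilted to higher means after rGAL1 in small steps. Of 13, 12 had higher means in rGAL1 and 1 lower, with a median of 0.10 log2 units and a range from -0.06 to 0.24. Means were higher in 51.7% and lower in 48.3% of all named genes, whose median was 0.00561, and higher in 53.2% and lower in 46.8% of those above the dim level. In 8 of the 13 both rGAL1 arrays lay above both Ctrl arrays, and in 0 below, against 20.2% above and 17% below among all named genes, and 22.2% and 17% among those above the dim level. Since the genes were chosen with earlier results known and none passed the test, these counts carry no p.

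KIF13A, which carries receptors and recycling endosomes to the cell surface, measured 6.48 and 6.51 on Ctrl 1 and 2 and 6.80 and 6.67 on rGAL1 1 and 2. Both treated values lay above both controls, by 0.24 on average (SE 0.11, 95% interval -0.04 to 0.52), a 1.18-fold difference. KIF16B, a motor of early endosomes, measured 6.41 and 6.40 in Ctrl and 6.66 and 6.55 in rGAL1, a difference of 0.20 (SE 0.10). Its Ctrl values were nearly equal and its rGAL1 values apart, as in KIF13A.

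KIF5A measured 5.90 and 6.14 in Ctrl and 6.31 and 6.16 in rGAL1, a difference of 0.21 (SE 0.13). The groups did not overlap, but rGAL1 2 lay only 0.02 above Ctrl 2, while rGAL1 1 lay 0.41 above Ctrl 1. KIF5C measured 5.69 and 5.72 in Ctrl and 5.86 and 5.87 in rGAL1, a difference of 0.16 (SE 0.10) seen alike in both numbered pairs. KIF17, a kinesin-2 of dendrites and cilia, measured 5.63 and 5.54 in Ctrl and 5.74 and 5.68 in rGAL1, a difference of 0.13 (SE 0.10). The third kinesin-1 heavy chain, KIF5B, differed by 0.0361 (95% interval -0.23 to 0.30), with overlapping groups.

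The remaining transport motors lay nearer to 0. KIF13B, a relative of KIF13A, differed by 0.11 and KIF3B by 0.10, both with groups that did not overlap. KIF3A, which pairs with KIF3B in the motor that builds cilia, differed by 0.0362; its groups did not overlap because the 2 arrays of each group were nearly equal. KIF1A (0.0766), KIF1B (0.0997) and KIF1C (0.0101) had overlapping groups, and KIF3C, at -0.0618, was the member with a lower mean. A dimmer probe set of KIF1B gave 0.24.

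The transport tilt was found without each array, at different sizes. Its median was 0.0674 without Ctrl 1, 0.109 without Ctrl 2, 0.0853 without rGAL1 1 and 0.135 without rGAL1 2, with 11 or 12 of 13 means higher. Counting rGAL1 2 as a control gave 0.101 and 12 of 13. Ctrl 1 was the lowest array for 8 of the 13 genes and rGAL1 1 the highest for 9. Between the arrays numbered 1 the median difference was 0.167 with 12 of 13 higher, and between those numbered 2 it was 0.0454 with 9 of 13 higher.

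Mitotic kinesins were mixed after rGAL1. Of 13, 9 had higher and 4 lower means, with a median of 0.0385 and a range from -0.13 to 0.22. In 5 both rGAL1 arrays lay above both Ctrl arrays and in 2 below, against 22.2% and 17% of named genes above the dim level. In these bulk samples, a difference in the share of cells in a cell cycle phase and a difference in RNA per cell cannot be told apart.

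The 5 mitotic genes with both rGAL1 arrays on the high side were motors of spindle poles, chromosomes and cytokinesis. KIF11 measured 9.11 and 9.0 in Ctrl and 9.29 and 9.27 in rGAL1, a difference of 0.22 (SE 0.10, 95% interval -0.04 to 0.49). KIF20B measured 8.87 and 8.70 in Ctrl and 9.0 and 8.93 in rGAL1, a difference of 0.18 (SE 0.11). KIF11 and KIF20B had their lowest value on Ctrl 2, as did KIF22 and KIF23, while KIF14 had its lowest on Ctrl 1. KIF14, a cytokinesis motor that binds citron kinase, measured 7.91 and 7.97 in Ctrl and 8.09 on both rGAL1 arrays, a difference of 0.15 (SE 0.10). KIF22 measured 8.28 and 8.25 in Ctrl and 8.47 and 8.35 in rGAL1, a difference of 0.15 (SE 0.10). KIF23, the motor of the centralspindlin complex, measured 8.49 and 8.37 in Ctrl and 8.59 and 8.53 in rGAL1, a difference of 0.13 (SE 0.11). Every one of these 5 intervals includes 0.

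The 2 mitotic genes on the low side were KIF20A and KIF4B. KIF20A, which brings the chromosomal passenger complex to the spindle midzone, measured 8.25 and 8.13 in Ctrl and 8.12 and 7.99 in rGAL1, a difference of -0.13 (SE 0.11). KIF4B measured 6.65 and 6.57 in Ctrl and 6.53 and 6.56 in rGAL1, a difference of -0.0703 (SE 0.10). In both, the nearest Ctrl and rGAL1 arrays were close to each other.

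In the other 6 mitotic genes the groups overlapped. KIF4A, which sets the length of midzone microtubules, measured 7.98 and 8.05 in Ctrl and 8.01 and 8.04 in rGAL1. KIF2C, a depolymerase of the centromere, measured 8.25 and 8.08 in Ctrl and 8.12 and 8.23 in rGAL1. Both differed by under 0.01 log2 units, with values of 0.00878 and 0.00929. KIF18A, which dampens chromosome oscillations, measured 7.45 and 7.33 in Ctrl and 7.5 and 7.42 in rGAL1, and KIF18B, which trims astral microtubules, 8.12 and 8.11 in Ctrl and 8.15 and 7.98 in rGAL1. KIF15, which can stand in for KIF11 at the spindle, measured 7.23 and 7.13 in Ctrl and 7.34 and 7.10 in rGAL1. KIF11 and KIF15 thus differed from Ctrl by 0.22 and 0.0385, and the difference between these 2 values was not tested. KIF2B measured 5.27 and 5.50 in Ctrl and 5.17 and 5.49 in rGAL1.

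The mitotic median of 0.0385 was larger without any 1 array, and it moved by more than its own size without Ctrl 1 or rGAL1 2. It was 0.0925 without Ctrl 1, 0.0441 without Ctrl 2, 0.0682 without rGAL1 1 and 0.105 without rGAL1 2, and 0.0969 with rGAL1 2 counted as a control, with 8 or 9 of 13 means higher. Per array, the mean mitotic level minus the mean transport level was 0.49 on Ctrl 1, 0.40 on Ctrl 2, 0.37 on rGAL1 1 and 0.41 on rGAL1 2. The Ctrl arrays averaged 0.44 (SD 0.0685, n = 2) and the rGAL1 arrays 0.39 (SD 0.024, n = 2), so the gap between groups was smaller than the SD of the Ctrl pair. The difference between the class medians, mitotic minus transport, was -0.0655 for rGAL1 minus Ctrl and 0.025 without Ctrl 1.

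**Figure D3:**
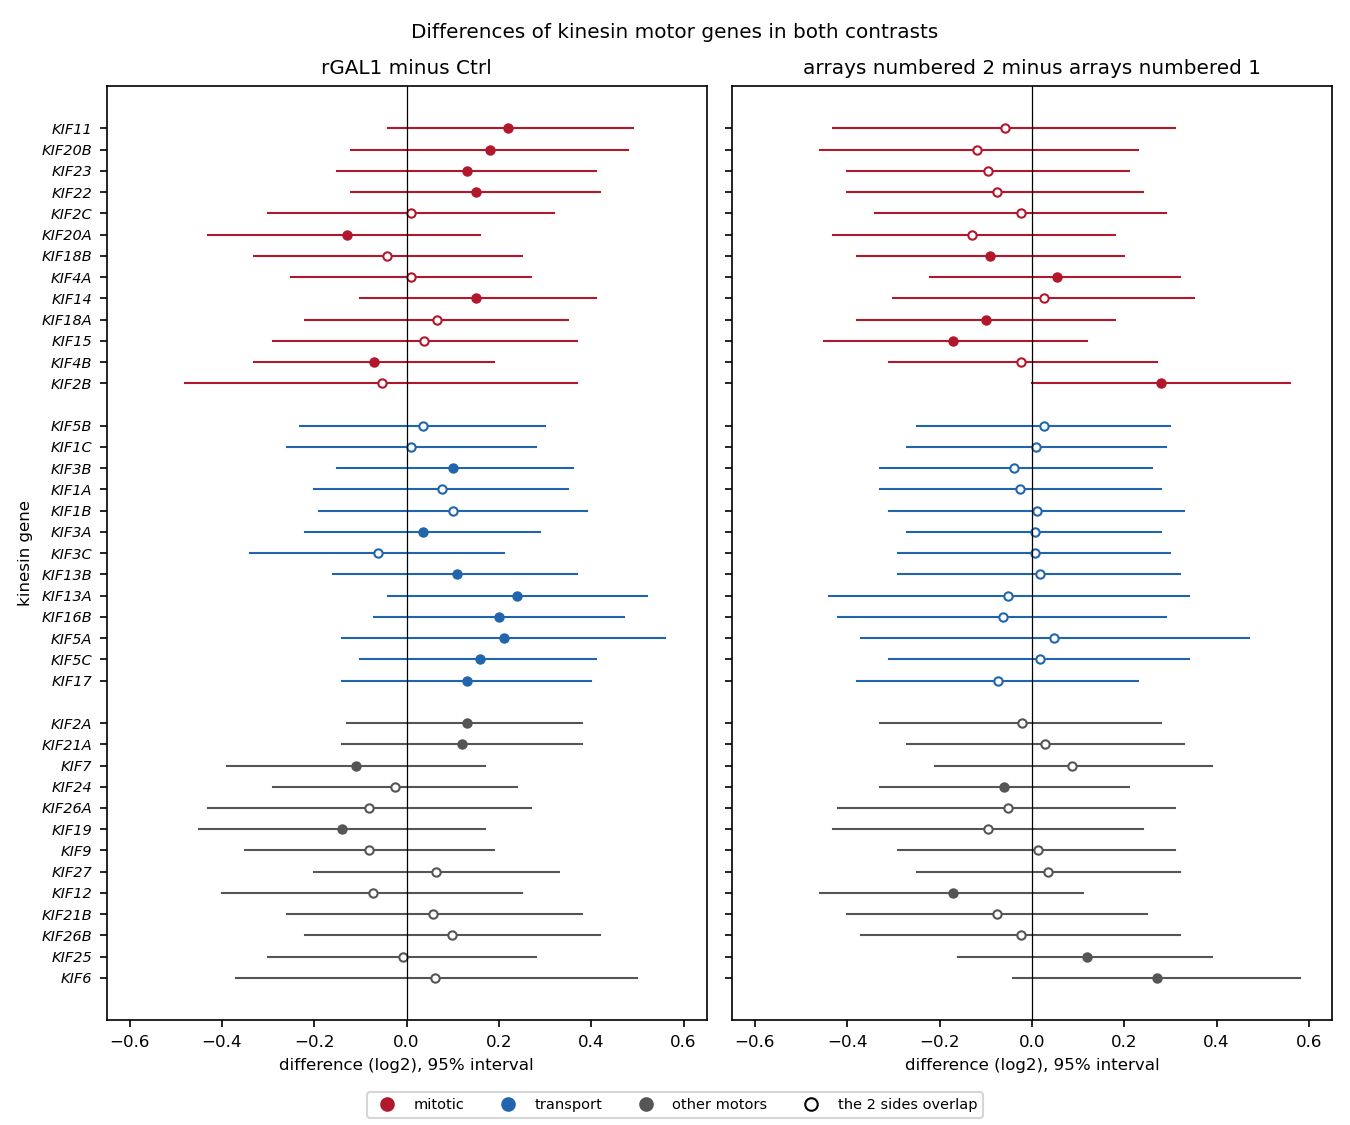
Difference of each motor gene (log2, with its 95% interval from limma) for rGAL1 minus Ctrl on the left and arrays numbered 2 minus arrays numbered 1 on the right; filled points mark genes whose 2 sides do not overlap. Every interval includes 0, 12 of 13 transport points lie right of 0 on the left, and 10 of 13 mitotic points lie left of 0 on the right.

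The other motors did not lean to either side after rGAL1. Of 13, 6 had higher and 7 lower means, with a median of -0.00869, against 51.7% higher and 48.3% lower of all named genes. Both rGAL1 arrays lay above both Ctrl arrays in 2 and below in 2, against 20.2% and 17% of all named genes. The median was -0.00711 without rGAL1 2, -0.0335 without Ctrl 2, 0.0174 without Ctrl 1 and 0.0355 without rGAL1 1. KIF2A, a depolymerase of spindle poles and nerve endings, measured 8.16 and 8.13 in Ctrl and 8.27 and 8.26 in rGAL1, a difference of 0.13 (SE 0.10). KIF21A, which slows microtubule growth at the cell cortex, measured 7.5 and 7.49 in Ctrl and 7.58 and 7.65 in rGAL1, a difference of 0.12 (SE 0.10). These were the 2 on the high side.

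KIF7, which organises the tip of the primary cilium and regulates GLI factors of the Hedgehog pathway, measured 6.80 and 6.93 in Ctrl and 6.73 and 6.78 in rGAL1, a difference of -0.11 (SE 0.11). KIF19, which limits the length of motile cilia, measured 5.96 and 5.98 in Ctrl and 5.93 and 5.73 in rGAL1, a difference of -0.14 (SE 0.12) that rests mainly on rGAL1 2. These were the 2 on the low side. KIF12 measured 5.72 and 5.56 in Ctrl and 5.66 and 5.47 in rGAL1, and KIF21B 5.62 and 5.40 in Ctrl and 5.53 and 5.60 in rGAL1, with overlapping groups. The antisense transcript KIF9-AS1 differed by -0.022 and its partner KIF9 by -0.0805.

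The arrays numbered 2 were compared with those numbered 1, each side holding, by title, a Ctrl and an rGAL1 array. If the untreated entry of rGAL1 2 is right, only the side numbered 1 holds a treated array, and this contrast then includes treatment. Leaving out 1 array also makes treatment unequal between the sides, so such values mix the numbered contrast with rGAL1 minus Ctrl. Again 0 of 39 motors were called, and 0% of all probe sets (limma, smallest adjusted p 0.0873 over all probe sets and 1 among motors). Without adjustment, 0 motors had a p under 0.05 at the probe set that stood for the gene. The shares were 4.61% of all probe sets, 1.91% of named genes and 0.786% of named genes above the dim level. Those of named genes are again too small to read 0 of 39 as a result. Dimmer probe sets of KIF27 did have a p under 0.05, as given below. Mitotic kinesins were lower on the arrays numbered 2 in 10 of 13, with a median of -0.0753 and a range from -0.17 to 0.28, against lower means in 50% of all named genes, whose median was -7.45e-05. Among named genes above the dim level 50.6% were lower and 49.4% higher. Transport kinesins were lower in 5 of 13, with a median of 0.00709 and a range from -0.07 to 0.05. The other motors were lower in 7 of 13, with a median of -0.0216, which was -0.0503 without rGAL1 2 and above 0 without any one of the other arrays, at 0.00553 to 0.0254.

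In 3 mitotic genes both arrays numbered 2 lay below both numbered 1, and in 2 above, where 15% of named genes above the dim level lay below and 14.2% above. KIF15 differed by -0.17 (SE 0.11), KIF18A by -0.10 (SE 0.11) and KIF18B by -0.0917 (SE 0.11). KIF2B lay on the other side, with 5.50 and 5.49 on the arrays numbered 2 against 5.27 and 5.17 on those numbered 1, a difference of 0.28 (SE 0.11, limma unadjusted p = 0.051). KIF4A was also on the high side, at 0.0536. For transport kinesins 0 genes were separated in either direction.

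Among the mitotic genes with larger negative values, KIF20A differed by -0.13, KIF20B by -0.12, KIF23 by -0.0962, KIF22 by -0.0753 and KIF11 by -0.0575, all with overlapping sides. In the others, KIF12 (-0.17) and KIF24 (-0.0608), which restrains cilium formation, lay wholly below, and KIF25 (0.12) and KIF6 (0.27), both dim, wholly above. KIF12 was 5.56 and 5.47 on the arrays numbered 2 and 5.72 and 5.66 on those numbered 1. The 2 further probe sets of KIF27, at means of 2.64 and 2.59 far under the dim level, each differed by 0.45. Their unadjusted p-values were 0.0107 and 0.0377 (limma), and neither was called. The brighter probe set of KIF27 (5.64) differed by 0.0338.

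The lower mitotic median was smallest in size without Ctrl 2. Ctrl 2 was the lowest array for 6 of the 13 mitotic genes, and rGAL1 1 the highest for 8. Without Ctrl 2 the median was -0.0159 with 7 of 13 lower, and it was -0.109 without Ctrl 1, -0.0548 without rGAL1 1 and -0.0999 without rGAL1 2. Within the Ctrl pair 10 of 13 were lower on array 2 (median -0.0974), and within the rGAL1 pair 9 of 13 (median -0.0616). Transport kinesins took opposite sides in the 2 pairs, with 4 of 13 lower within Ctrl (median 0.0262) and 10 of 13 lower within rGAL1 (median -0.067). Without Ctrl 1 the transport median was -0.0834, with 12 of 13 lower, and without rGAL1 2 it was -0.0168, with 9 of 13 lower. Both values include part of the transport difference between rGAL1 and Ctrl, because treatment is unequal between the sides in these fits. The difference between class medians, mitotic minus transport, was -0.0823, and -0.0257 to -0.11 without 1 array.

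**Figure D4:**
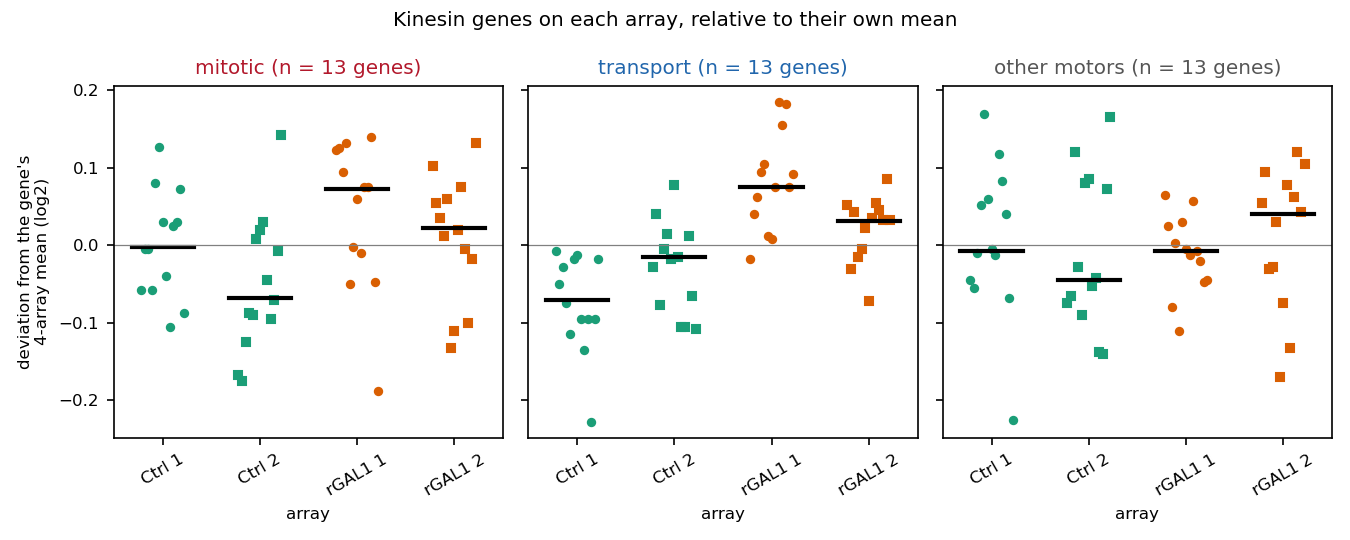
Deviation of each gene on each array from its own mean over the 4 arrays (log2), by class, with a black bar at the class median; symbols and colours are those of the arrays. Mitotic genes have their lowest median on Ctrl 2 (-0.068) and their highest on rGAL1 1 (0.0726), transport genes their lowest on Ctrl 1 (-0.071) and highest on rGAL1 1 (0.0757).

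Genes that work with the mitotic kinesins took the same side in the numbered contrast. Of 26 measured partners on a list of 31 (spindle and midzone proteins, mitotic kinases, cyclins and checkpoint genes), 25 were lower and 1 higher on the arrays numbered 2, with a median of -0.0838. In 14 both arrays lay below both others, against 15.1% of all named genes, and 0 lay above. The count of called partners was 0 (limma), and 1 had an unadjusted p under 0.05, as had 1.91% of named genes. This was RACGAP1, the partner of KIF23 in centralspindlin, whose mean of 4.65 is below the dim level. It measured 4.92 and 4.80 on the arrays numbered 1 and 4.26 and 4.63 on those numbered 2, a difference of -0.42 (SE 0.16) that was -0.66 within Ctrl and -0.17 within rGAL1. Ctrl 2 was the lowest array for 20 of the 26 partners, and without it 21 of 26 were lower, with a median of -0.0377; without rGAL1 2 the median was -0.134, with 23 lower. For rGAL1 minus Ctrl, 20 of 26 partners had higher means (median 0.0448), and 13 of 26 without Ctrl 2 (median -0.00121). The median was 0.013 without rGAL1 1, 0.0993 without Ctrl 1, 0.103 without rGAL1 2 and 0.101 with rGAL1 2 counted as a control.

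Regulators of late cell cycle transcription and genes of S phase had smaller medians, a difference that was not tested. Of 11 measured genes of DREAM, MuvB and related regulators on a list of 15, with no NF-Y gene among them, 8 were lower on the arrays numbered 2 (median -0.0498), with LIN52 at -0.23 and LIN37 at 0.11, both subunits of MuvB. Of 17 measured replication genes on a list of 20, 14 were lower (median -0.0454), with the S phase cyclin CCNE2 at -0.16 and MCM5 at 0.0503. Of all named genes 50% were lower. For rGAL1 minus Ctrl the medians were 0.0258 with 7 of 11 higher and 0.0231 with 10 of 17 higher. RBL1, a pocket protein of DREAM, differed by 0.16, LIN37 by -0.16 and the ribonucleotide reductase subunit RRM1 by 0.18. Without rGAL1 1 these medians were -0.0221 and -0.0139, without rGAL1 2 they were 0.052 and 0.0636, and with rGAL1 2 counted as a control 0.0384 and 0.0683. In the numbered contrast the medians were -0.0557 and -0.0464 without rGAL1 2, and 0.00372 and -0.0167 without rGAL1 1. Unadjusted p-values under 0.05 (limma) numbered 0 in both lists and both contrasts. Among all named genes their share was 2.98% for rGAL1 against Ctrl and 1.91% for the numbered contrast.

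Kinesin genes outside the symbol rule and partners of transport had medians below 0 for rGAL1 minus Ctrl. Of 8 measured relatives and light chains on a list of 10, 3 had higher means in rGAL1 (median -0.0444). The median was 0.0674 without Ctrl 2, with 6 of 8 higher, 0.00556 without rGAL1 1 and -0.0272 without rGAL1 2. KIFC1, a minus-end spindle motor, differed by 0.0985 and the light chain gene KLC4 by -0.20 (SE 0.12), and KIFC2 differed by 0.22 (SE 0.11) between arrays numbered 2 and 1. The list of 21 genes for dynein, the motor that runs the other way, had 10 measured members, all of them dynactin subunits or dynein regulators and adaptors and none a dynein subunit. Of these, 2 had higher means in rGAL1 (median -0.0496, with -0.00409 without rGAL1 2 and 0.018 with it counted as a control), with the dynactin subunits DCTN1 at 0.12 and DCTN2 at -0.15. Of 8 measured cargo adaptors on a list of 14, 3 had higher means (median -0.0327, and 0.00347 without rGAL1 2), with MAPK8IP3, a scaffold that links kinesin-1 to vesicles, at -0.15 and DPYSL2, an adaptor for tubulin, at 0.13. None of these 26 genes passed the test for rGAL1 against Ctrl (limma), where 0% of all probe sets passed. None had an unadjusted p under 0.05, against 2.98% of named genes, a share too small to read 0 of 26 as a result. Whether these lists differ from the transport kinesins was not tested. In the numbered contrast their medians were 0.0434, -0.0491 and 0.0022, and without rGAL1 2 they were 0.0555, -0.0116 and 0.0402. Means were lower on the arrays numbered 2 in 3 of 8, 8 of 10 and 4 of 8, against 50% of all named genes. The dynactin and dynein regulator list thus had a median close to those of the late cell cycle regulators (-0.0498) and the replication genes (-0.0454). Tubulin genes had 0 named probe sets of 14 and are not analysed here.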

How the data were processed

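The authors deposited 1 log2 value for each probe set and array. Per the submitters' processing notes RMA and limma were used, with versions and settings not given in the sources used here. RNA was labelled with a whole-transcript kit, per the labels' protocols. RMA corrects background and normalizes between arrays, and its values understate differences of dim probe sets. All 53617 probe sets were fitted here in R 4.3.3 by limma 3.58.1, using lmFit and eBayes without a block, two-sided, with Benjamini-Hochberg adjustment over all of them at 0.05; 2 residual degrees of freedom remained. Symbols came from the platform annotation (16098 probe sets with 1 symbol, 0 with several). The classes, lists, contrasts and naming rule were chosen with earlier results of these data known. Every mitotic motor was named with its arrays, as were, in the other classes, the 4 largest differences per contrast above the dim level; of companion lists, genes at an unadjusted p under 0.05 or else the largest differences. Alternatives were another normalization, leaving out an array, the conflicting label, the replicate block, the variance prior, filters, probe set choice and class membership. The number of arrays limits the precision, with a median SE of 0.126.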

Additional observations from a re-analysis of the deposited data

How the results depend on the processing

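With limma, 0 probe sets passed for rGAL1 against Ctrl under every alternative, and for arrays numbered 2 against 1 the exception was 1 probe set with an intensity trend in the prior, which was no kinesin. The replicate block also left 0 called in both contrasts. Over all 53617 probe sets same-numbered arrays did not deviate together (r = -0.0476), so the numbers were not taken to pair the arrays. The mitotic partners did lean alike, with 25 of 26 lower on array 2 within Ctrl and 22 of 26 within rGAL1. No motor was called under any alternative (smallest adjusted p 0.78 and 0.845), while 17 of 39 differences for rGAL1 minus Ctrl and 26 of 39 for the numbered contrast changed sign under at least 1 setting. Leaving out 1 array makes treatment unequal in the numbered contrast and array number unequal in rGAL1 minus Ctrl, so each such value mixes both contrasts. Fits without 1 array assume that the lone array of a side varies like the others. Among them, the mitotic median ranged from 0.0441 to 0.11 for rGAL1 minus Ctrl and from -0.11 to -0.0159 for the numbered contrast, and the transport median in the latter from -0.0834 to 0.0583. The mitotic minus transport difference for rGAL1 minus Ctrl ranged from -0.0652 to 0.025. With rGAL1 2 counted as Ctrl the mitotic median was 0.0969 and mitotic minus transport -0.00404. The gap in median level on the Ctrl arrays was 1.04 to 1.17 without 1 of them, 1.32 averaging a gene's probe sets, and 0.44 from class means; the last 2 follow from how the value is built. Values without 1 array carry the imbalance named above, and for the other changes the cause was not tested.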
